A study of Homo sapiens and Mus musculus with 24 samples.

Results

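Peaks of hemogen, BRG1 and acetylated histone H3 lysine 27 (H3K27ac) were described at the loci of 5 genes that encode a transcription factor complex of blood cells: Tal1, Lyl1, Lmo2, Ldb1 and Cbfa2t3. Members were all peaks of the fetal liver lists that overlapped a fixed window around each gene, by position alone. They numbered 1107 of the 564622 peaks in 12 lists, with 215 at Tal1, 92 at Lyl1, 410 at Lmo2, 89 at Ldb1 and 301 at Cbfa2t3. No filter on low values was applied, so every peak of the windows was kept.

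TAL1 (SCL) is a basic helix-loop-helix factor needed to form blood cells, and LYL1 is its closest relative. Both pair with E proteins on DNA and are bridged to GATA factors by the LIM-only protein LMO2, while LDB1 binds LMO2, dimerises and holds enhancers and promoters together. CBFA2T3 (ETO2, MTG16) is a corepressor that joins this complex in immature red cells. Several of these genes are known to be controlled by distal blood enhancers that bind the complex itself. Hemogen is a blood-restricted nuclear protein, and BRG1 is the motor subunit of BAF (SWI/SNF) complexes, which move nucleosomes.

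The study sequenced immunoprecipitated chromatin from livers of mouse embryos at embryonic day 14.5, a stage at which this organ makes red blood cells. Wild-type (WT) livers were precipitated for the HA tag (antibody ab9110, titled as hemogen), for H3K27ac (ab4729) and for BRG1 (ab110641), and hemogen knockout (KO) livers for BRG1 alone. Each of these 4 groups had 2 libraries with a peak list each, plus 1 group list, and input libraries were made from both genotypes. How the tag came to be in livers labelled WT is not said in the labels, so each hemogen peak rests on the HA antibody in livers whose tag is undescribed. The labels name neither the deleted part of the gene nor separate animals for the libraries, so spreads are between libraries and may be technical. Whole liver holds several cell types, and a peak shared by few cells cannot be told apart from a weak peak in many.

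Positions are on mouse build mm10, inferred from the contig names and chromosome ends in the lists. The windows were chr4:115040000-115110000 for Tal1 (70 kb), chr8:84695000-84710000 for Lyl1 (15 kb), chr2:103880000-103985000 for Lmo2 (105 kb), chr19:46025000-46050000 for Ldb1 (25 kb) and chr8:122620000-122705000 for Cbfa2t3 (85 kb). Neither mouse gene models nor mouse sequence were used here. Regions are therefore named by position, without exon, intron or promoter, and a window may also hold parts of neighbouring genes.

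The lists had unequal depth. Depth was estimated from the lowest background that several peaks of a list share, taken as its genome-wide background. Backgrounds were worked out from each peak's fold and p-value. For depth, the genome-wide background was divided by the list's scaling factor in the peak call and by the width of its shortest peak. That width stood in for the fragment length. Set relative to WT library 1, the estimated depth came to 1.04 in WT BRG1 library 2, 0.406 in KO library 1 and 0.342 in KO library 2. Median fragment numbers at called summits were similar in all 4 libraries, at 24 and 27 in WT and 30 and 25 in KO. Whole lists held 26329 and 21165 BRG1 peaks in WT and 3205 and 5592 in KO. These differences go with every comparison of WT and KO below, and their part in those results was not tested.

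All 5 loci carried hemogen, BRG1 and H3K27ac in WT liver, in different proportions. At Tal1, Lyl1 and Ldb1 the 3 marks covered similar lengths. Hemogen peaks covered 27.7% and 22.1% of the Tal1 window in libraries 1 and 2, H3K27ac peaks 29.3% and 21.1%, and WT BRG1 peaks 23.5% and 20.0%. The Lyl1 window was the most densely covered, with 39.6% and 43.8% for hemogen, 40.7% and 32.8% for H3K27ac and 43.5% and 35.8% for WT BRG1. At Ldb1 the corresponding values were 29.1% and 26.7%, 25.8% and 19.2%, and 26.0% and 23.0%. The libraries of the 3 marks overlapped in coverage at Tal1 and Lyl1, whereas at Ldb1 both hemogen libraries lay above those of the other marks. Shares of different windows depend on how long each window was drawn, and that of Lyl1 was the shortest. In length, hemogen covered 5.94 and 6.57 kb at Lyl1 and 19.4 and 15.5 kb at Tal1.

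Cbfa2t3 stood apart from this arrangement. H3K27ac covered 39.8% and 27.9% of its window, hemogen only 9.27% and 7.51%, and WT BRG1 only 3.95% and 3.17%. Both H3K27ac libraries lay above both hemogen libraries, and both of these above both BRG1 libraries. The longer group lists had the same order, at 65.3% for H3K27ac, 17.7% for hemogen and 8.32% for WT BRG1. Lmo2 was intermediate, at 31.1% and 26.6% for H3K27ac, 20.4% and 19.8% for hemogen and 15.4% and 10.9% for WT BRG1. In the KO, BRG1 peaks covered less of every window than in either WT library: 1.82% and 4.12% at Tal1, 6.37% and 18.0% at Lyl1, 1.12% and 3.14% at Lmo2, 0.836% and 1.93% at Ldb1, and 0.225% and 0.338% at Cbfa2t3. The KO values share the lower depth given above. Whole lists of the WT marks also differed in length. They held 69882 and 45545 peaks for H3K27ac, 53055 and 42866 for hemogen and 26329 and 21165 for BRG1. Coverage of the whole genome is not given beside these shares, and the part of list length in them was not tested.

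**Figure D1:**
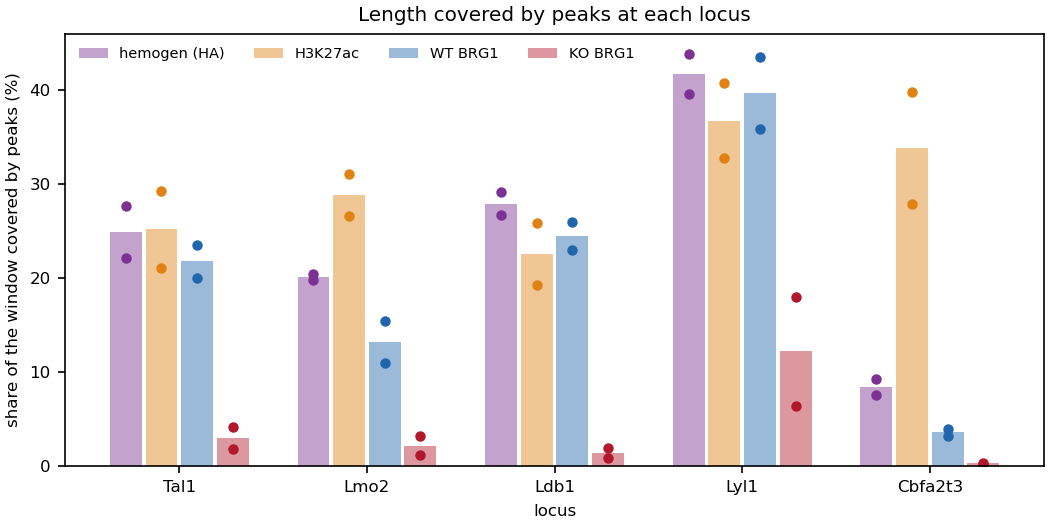
Share of each window (%) covered by peaks, by locus and mark; points are the 2 libraries of a group and bars their mean. Hemogen, H3K27ac and WT BRG1 cover similar shares at Tal1, Ldb1 and Lyl1, whereas at Cbfa2t3 H3K27ac covers 39.8% and 27.9% and WT BRG1 3.95% and 3.17%.

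Regions were next taken as merged peaks of the 2 libraries of a group that held a peak of each. The windows held 32 hemogen regions of 25631 in the genome, 112 H3K27ac regions of 25305, 34 WT BRG1 regions of 13213 and 6 KO BRG1 regions of 1543. A region's strength is the mean of its best −log10 p percentile in the 2 library lists, so that 100 is the top of both lists. WT BRG1 regions of the 5 loci had a median strength of 70.2 and a median width of 988 bp, beside 63.0 and 780 bp over all WT BRG1 regions. Median strength differed between the loci, at 86.6 for Tal1, 83.6 for Lmo2, 73.1 for Lyl1, 57.3 for Cbfa2t3 and 31.0 for Ldb1.

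Most BRG1 at these loci lay on hemogen and on acetylated chromatin. A hemogen region overlapped 31 of the 34 by at least 1 bp, or 91.2% (95% Clopper-Pearson interval 76.3% to 98.1%, counting error only), beside 96.6% over all WT BRG1 regions. An H3K27ac region was present at 28 of the 34, or 82.4% (65.5% to 93.2%), beside 63.9% genome-wide. The genome-wide share lay inside the first interval and just below the second. Regions of 1 locus share their source, so no test over regions was made.

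Seen from hemogen, the loci were mostly acetylated. Of the 32 hemogen regions, 25 overlapped an H3K27ac region, or 78.1% (60.0% to 90.7%), beside 39.8% of all hemogen regions. A WT BRG1 region was present at 18 of 32, or 56.2% (37.7% to 73.6%), beside 41.6%, and a WT BRG1 peak of any list at 29 of 32, beside 72.9%. All 4 hemogen regions of Ldb1 and both of Lyl1 overlapped a WT BRG1 region, as did 5 of 6 at Tal1, but only 4 of 11 at Lmo2 and 3 of 9 at Cbfa2t3. This contrast rests on regions found in both BRG1 libraries. A WT BRG1 peak of any list was present at 9 of 11 at Lmo2, 8 of 9 at Cbfa2t3 and 6 of 6 at Tal1. Among the shares of the 32 hemogen regions, that with H3K27ac was farthest from its genome-wide value.

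Seen from H3K27ac, BRG1 was unevenly spread over the loci. Of the 112 H3K27ac regions, 40 overlapped a WT BRG1 region, or 35.7% (26.9% to 45.3%), beside 37.2% genome-wide, and 46 overlapped a hemogen region, or 41.1%, beside 49.0%. Behind the first average stood 15 of 23 regions at Tal1, 6 of 8 at Lyl1, 4 of 5 at Ldb1, 13 of 46 at Lmo2 and 2 of 30 at Cbfa2t3. The Cbfa2t3 share came to 6.67% (0.818% to 22.1%) and that of Tal1 to 65.2% (42.7% to 83.6%). These intervals treat neighbouring regions of a window as independent, and the difference between the loci was not tested. Hemogen was likewise present at 6 of the 30 H3K27ac regions of Cbfa2t3 and at 14 of the 23 of Tal1.

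**Figure D2:**
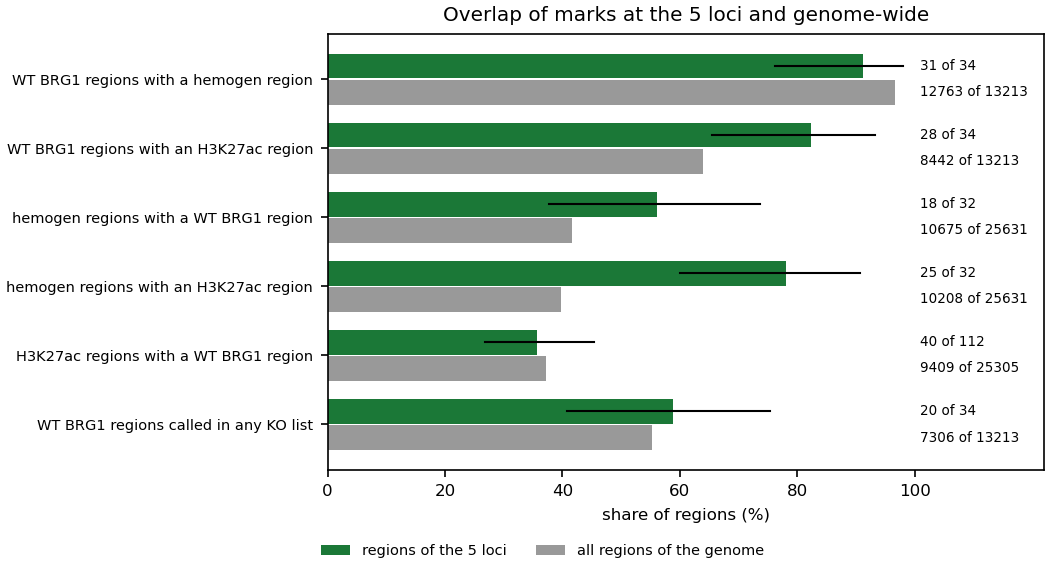
Share (%) of regions that overlap another mark by 1 bp, for the regions of the 5 loci (green, with 95% Clopper-Pearson intervals) and for all regions of the genome (grey), with the counts at the right. The hemogen regions of the 5 loci overlap H3K27ac at 25 of 32, beside 39.8% of all hemogen regions, while WT BRG1 regions called in the KO stand at 20 of 34, near the genome-wide 55.3%.

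Summits of hemogen and BRG1 were compared only where both fell inside the same WT BRG1 region, which limits the gap to the region's width. The median gap was 162 bp over 20 regions in the libraries numbered 1, beside 132 bp genome-wide. In those numbered 2 it was 112 bp over 21 regions, beside 126 bp. Gaps ran from 5 to 1567 bp in the former and from 5 to 2711 bp in the latter. Gaps of at most 100 bp made up 9 of 20 and 7 of 21, or 45.0% and 33.3%, beside 41.5% and 42.8%. Same-numbered libraries of the 2 antibodies share a number only, and the peak names inside the hemogen lists carry other numbers than the sample titles, which were used.

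BRG1 peaks were fewer in KO liver at these loci, in lists that were shorter throughout. The 5 windows together held 60 and 55 BRG1 peaks in the WT libraries and 13 and 23 in the KO libraries, or 57.5 ± 3.54 and 18.0 ± 7.07 (SD, n = 2 libraries each). WT and KO libraries did not overlap, and their means stood at a ratio of 3.19. An exact two-sided permutation test over libraries gave p = 0.333, the smallest that 2 against 2 libraries allow. Over the whole lists the same ratio was 5.40. With each BRG1 library list trimmed to its 3205 most significant peaks, the windows held 11 and 15 peaks in WT and 13 and 16 in KO, a ratio of 0.897 with overlapping groups (exact permutation p = 0.667). Trimming makes the lists equally long, so a difference that runs through the whole lists is removed in advance. The direction of this comparison turned under that setting.

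WT BRG1 regions were then sorted by whether any of the 3 KO lists (library 1, library 2 and the group list) had a peak on them, which is termed called in the KO. Of the 34 regions, 20 were called, or 58.8% (40.7% to 75.4%), beside a genome-wide 55.3%. KO library 1 called 9 of them, or 26.5% (12.9% to 44.4%), beside 18.4%. Library 2 called 16, or 47.1% (29.8% to 64.9%), and the genome-wide 28.9% lay just below that interval. Both libraries called 7, or 20.6% (8.70% to 37.9%), beside 12.1%, and the group list 18, or 52.9% (35.1% to 70.2%), beside 53.6%. Without KO library 2 and the group list the share was 26.5%, with the authors' group lists as regions 31.9% of 72, and with trimmed lists 87.5% of 8. No genome-wide share was computed for the group-list and trimmed settings, so their values are not results about these loci. At the genome-wide shares of the same strength deciles, 20.4 of the 34 would be called, which is 59.9%. By a call in any of the 3 KO lists, the 5 loci together were therefore called about as often as regions of like strength elsewhere in the genome. The decile shares were not worked out for single KO libraries, whose calls at the loci lay above their genome-wide shares.

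By the same call, individual loci lay on either side of their decile values. All 5 regions of Lyl1 were called, where the genome-wide shares of their deciles give 2.87. Cbfa2t3 had 2 of 3 called against 1.34, Lmo2 7 of 11 against 7.74, Ldb1 2 of 6 against 2.42 and Tal1 4 of 9 against 5.98. The interval of each locus contained its own decile value. For Lyl1 it ran from 47.8% to 100% around a decile value of 57.4%, and for Tal1 from 13.7% to 78.8% around 66.5%.

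**Figure D3:**
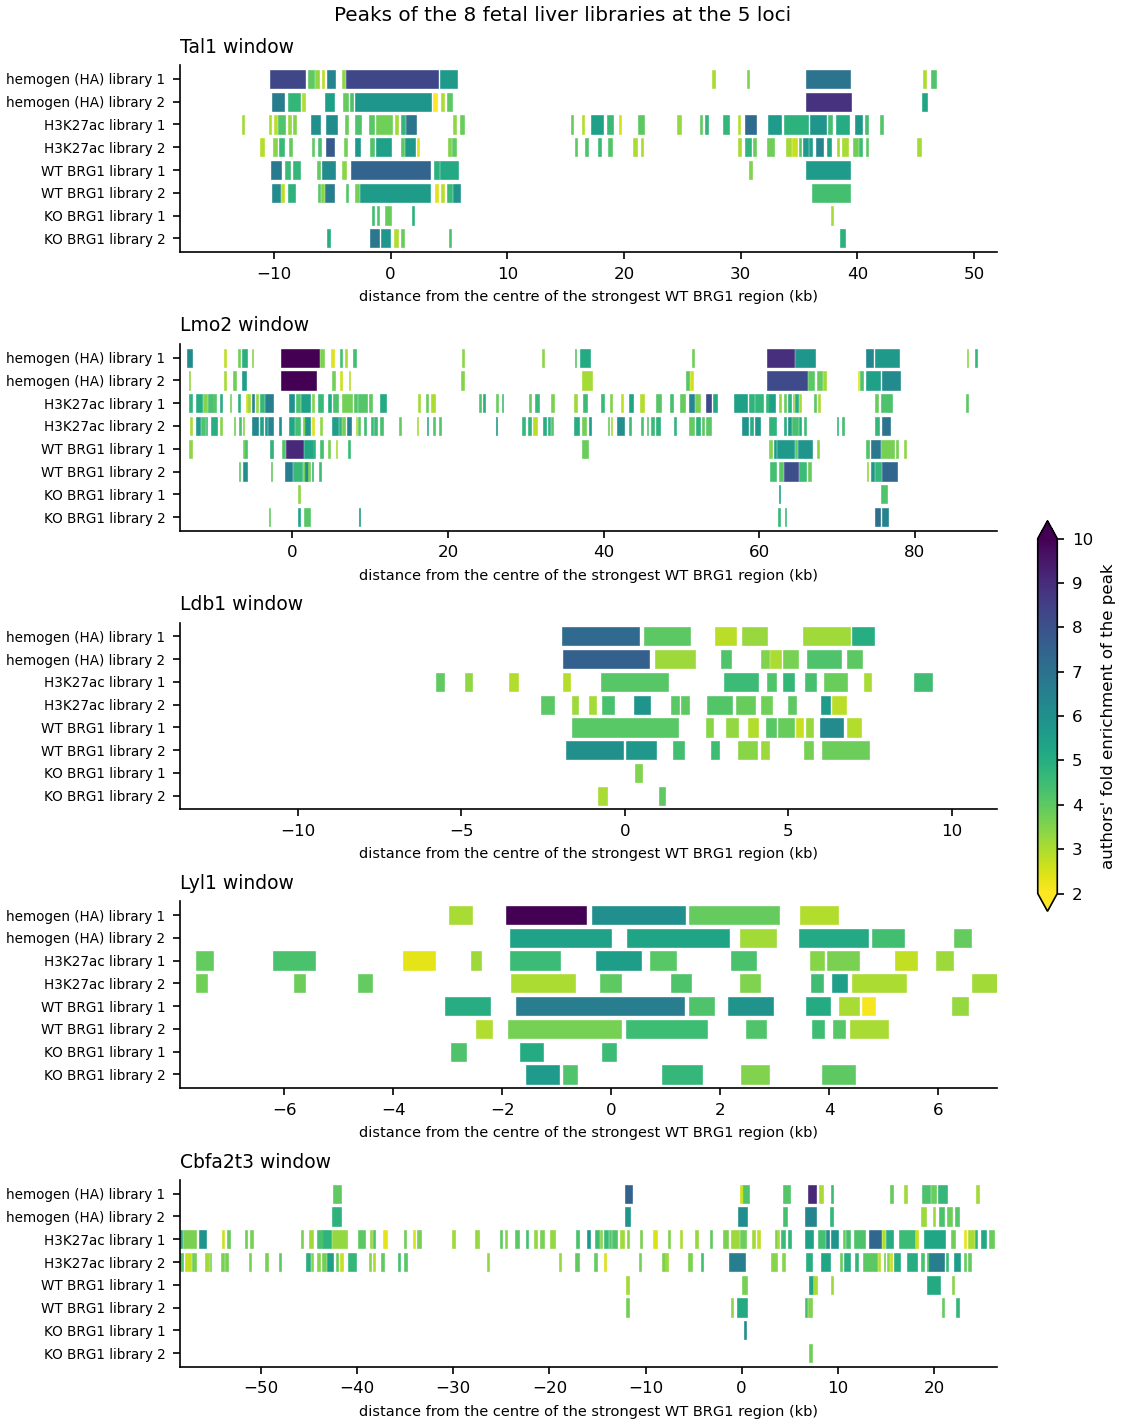
Peaks of the 8 libraries in the 5 windows, by distance (kb) from the centre of the strongest WT BRG1 region of each window; each block is 1 peak and its colour the authors' fold enrichment (linear). Most WT BRG1 regions overlap hemogen (31 of 34), while 18 of 32 hemogen regions overlap a WT BRG1 region. KO BRG1 blocks are short. All but a library 2 block at Lmo2 (chr2:103902960-103903150) overlap a WT BRG1 peak of some list. At Cbfa2t3 H3K27ac runs across the window where BRG1 has few peaks.

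Tal1 encodes the basic helix-loop-helix factor that gives the complex its name. Its window held 6 hemogen, 23 H3K27ac and 9 WT BRG1 regions. The strongest BRG1 region, chr4:115054678-115061426, was 6749 bp wide, rank 4 by width and rank 163 by strength of the 13213 in the genome. The authors' fold enrichment there (summit over local background, linear) was 7.44 and 5.60 in the WT libraries and 4.21 and 6.83 in the KO libraries, so WT and KO overlapped. A fold is read at the summit of each library's peak, and at this region the outermost of the 4 summits lay 1130 bp apart. Over the 18 WT BRG1 regions with a KO library peak this distance had a median of 348 bp and exceeded 500 bp in 7. It lay inside the hemogen region chr4:115053866-115062093, which at 8228 bp had rank 5 by width of 25631, with folds of 8.30 and 5.80.

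A second broad Tal1 site lay 37.5 kb from the centre of that region. At chr4:115093605-115097403, 3799 bp wide, BRG1 folds were 5.63 and 4.40 in WT and 3.08 and 4.90 in KO, again overlapping, from summits up to 917 bp apart. Hemogen was stronger here than at the first site by rank, with folds of 6.94 and 8.87 and rank 289 of 25631. H3K27ac was spread along this part of the window as well, and the widest H3K27ac region of Tal1, chr4:115091755-115093838 (2084 bp, folds 4.85 and 5.70), overlapped both hemogen and BRG1 here.

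The other 3 strong Tal1 regions differed in their KO calls. At chr4:115047841-115048660 the WT libraries had BRG1 folds of 6.74 and 6.19, from 38 and 37 fragments at the summit, and hemogen folds of 8.30 and 6.66. No KO list held a peak there, although its strength of 92.4 put it in the top decile of WT BRG1 regions. Of the 8 regions of the 5 loci in that top decile, 7 were called in the KO (91.6% genome-wide), and this was the exception. Regions chr4:115052116-115053308 (WT 6.21 and 6.67, KO library 2 5.08) and chr4:115062264-115064005 (WT 5.16 and 5.91, KO library 2 4.25) had peaks in KO library 2 and the group list but not in KO library 1.

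The remaining Tal1 regions were weaker. Region chr4:115049001-115050248 (strength 59.5), with WT folds of 4.69 and 4.85, was in no KO list and was the sixth by strength. The other 3, of strength 35.4 to 35.9, were in no KO list either. The hemogen region chr4:115103576-115103999 was the only 1 of 6 at Tal1 without a WT BRG1 region, with folds of 2.98 and 5.25 and no H3K27ac region.

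Lyl1 encodes the relative of TAL1 that can stand in for it in some blood cells. Its 15 kb window held 2 hemogen, 8 H3K27ac and 5 WT BRG1 regions. BRG1 was strongest at chr8:84701030-84704802, 3773 bp wide, with WT folds of 6.65 and 4.52 and KO folds of 5.12 and 5.64. The KO values lay between those of the WT libraries. However, the WT summits were at 84701719 and 84704402 and the KO summits at 84701495 and 84701783, so the WT libraries were read at different places of the region. Fragments at these summits numbered 40 and 42 in WT and 34 and 34 in KO.

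Hemogen at Lyl1 had unequal folds in its libraries. Its folds in the region chr8:84700991-84706000 were 11.2 and 5.38 in libraries 1 and 2, from 60 and 64 fragments at summits 84701700 and 84701691. Library 2 was scaled by 0.740 in the peak call and library 1 by 1.000, and the recovered local background on that scale was 8.00 in library 2 and 4.46 in library 1. Relative depth was 0.720 in hemogen library 1 and 1.02 in library 2, so the similar fragment numbers are not equal signal per depth. The part of each term in the fold difference was not tested.

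The other 4 Lyl1 regions also had KO peaks. Region chr8:84705064-84705893 had folds of 5.89 and 4.21 in WT and 3.52 in KO library 2, and chr8:84706491-84706926 had 5.11 and 4.53 in WT and 3.97 in KO library 2. A KO library 2 peak of fold 3.97 also overlapped the neighbouring chr8:84706991-84707996, with WT folds of 3.04 and 4.10. In chr8:84699861-84700730 it was KO library 1 that had the peak, of fold 4.23 beside 5.01 and 2.95 in WT. Only this last region lacked a hemogen and an H3K27ac region. The widest H3K27ac region, chr8:84706882-84708526 (1645 bp, folds 3.60 and 5.53), overlapped hemogen and BRG1.

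Lmo2 encodes the LIM-only bridge of the complex, and its window held 11 hemogen, 46 H3K27ac and 11 WT BRG1 regions. The highest folds of the 5 loci were found here. At chr2:103893114-103895764 BRG1 folds were 9.08 and 6.61 in WT and 3.35 and 5.33 in KO, with both KO libraries below both WT libraries. Hemogen there, in the region chr2:103893022-103897914, had folds of 12.9 and 10.3 and rank 17 of 25631 by strength. The neighbouring BRG1 region chr2:103895793-103897416 had 5.30 and 6.18 in WT and 4.12 in KO library 2.

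Within that strongest Lmo2 region the summits of the genotypes did not coincide. The WT summits were at 103893959 and 103893952, and the KO summits at 103895310 and 103895293, so the WT and KO folds were read at different places of a 2651 bp region. Peak lists give 1 summit per peak, and the WT signal at the KO summits was not analysed here.

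The more distal Lmo2 regions differed among themselves. At chr2:103956766-103959380, 63.6 kb from the centre of the strongest region, folds were 5.67 and 8.12 in WT and 5.32 and 4.57 in KO, below both WT libraries, from summits up to 1703 bp apart. At chr2:103968758-103970042 they were 6.84 and 4.68 in WT and 7.07 in KO library 2, above both WT libraries. KO library 1 had no peak there, and the group lists went the other way, with folds of 5.67 in WT and 3.26 in KO. At chr2:103970102-103972294 they were 3.68 and 7.35 in WT and 4.19 and 6.42 in KO, both KO values between the WT values. Among the 6 strongest Lmo2 regions, chr2:103959464-103961231 was the only one in no KO list, with WT folds of 5.84 and 4.54 and a strength of 83.6.

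The weaker Lmo2 regions numbered 5, with strengths from 35.4 to 75.8. Of these, chr2:103955650-103956650 was called by the KO group list alone (fold 3.67) and chr2:103891576-103891984 by KO library 2 alone (fold 3.93), while 3 were in no KO list. The strongest hemogen region of Lmo2 without a WT BRG1 region was chr2:103880953-103881520, with folds of 6.14 and 3.32. The widest H3K27ac region, chr2:103951195-103952968 (1774 bp, folds 5.44 and 5.86), overlapped neither a hemogen nor a WT BRG1 region.

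Ldb1 encodes the adaptor that dimerises and joins distant sites. Its window held 4 hemogen, 5 H3K27ac and 6 WT BRG1 regions. The strongest BRG1 region, chr19:46036808-46040423, was 3616 bp wide, with folds of 4.09 and 6.03 in WT and 3.54 and 3.99 in KO. The KO libraries lay below both WT libraries, by little in library 2, and the summits lay up to 1607 bp apart. The widest H3K27ac region, chr19:46037879-46039945 (2067 bp, folds 4.12 and 5.87), lay inside it, and hemogen had folds of 7.28 and 7.58.

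A second Ldb1 region, chr19:46044572-46046080, had folds of 6.19 and 3.81 in WT and was called by the KO group list alone, at 2.72. Between these regions lay 4 weak ones, chr19:46041092-46041480, chr19:46041718-46042692, chr19:46042770-46043243 and chr19:46044094-46044372. Their WT folds ran from 3.20 to 4.52 and none was stronger than 33.7, and none was in a KO list. These 4 regions were in strength deciles 1 and 2, the weakest of the genome. There the share of all WT BRG1 regions with a KO call was 25.9% and 32.9%. Every hemogen region at Ldb1 overlapped a BRG1 region.

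Cbfa2t3 encodes the corepressor of the complex, and its window held 9 hemogen, 30 H3K27ac and 3 WT BRG1 regions. The WT BRG1 libraries shared few peaks here: 3 of 7 in each overlapped a peak of the other, beside 45 of 60 and 49 of 55 over the 5 loci and 58.4% and 81.0% of all peaks of libraries 1 and 2. Region chr8:122666380-122666753 had folds of 3.10 and 3.69 and was in no KO list. It lay under one of the stronger hemogen regions of the window, with hemogen folds of 7.47 and 5.82, and had no H3K27ac region.

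The other 2 BRG1 regions of Cbfa2t3 were called in different KO libraries. At chr8:122677935-122678954 WT folds were 3.67 and 5.14 and KO library 1 had 6.18, above both, while KO library 2 and the group list had no peak. At chr8:122685339-122685832 WT folds were 5.30 and 3.56 and KO library 2 had 3.76, between them, with no peak in KO library 1. Hemogen at the latter had folds of 9.08 and 6.38, the strongest hemogen region of this window.

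Most of the acetylated Cbfa2t3 chromatin had no BRG1 region. The widest H3K27ac region, chr8:122634297-122637422, was 3126 bp wide, rank 124 of 25305, with folds of 4.82 and 5.52. It held the hemogen region chr8:122635855-122636801 (folds 3.95 and 4.86), the strongest at Cbfa2t3 without a WT BRG1 region. At chr8:122697064-122699639 H3K27ac reached folds of 5.26 and 6.63, and each WT BRG1 library had a peak, of fold 5.14 and 3.93. These peaks did not overlap each other and so made no region.

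**Figure D4:**
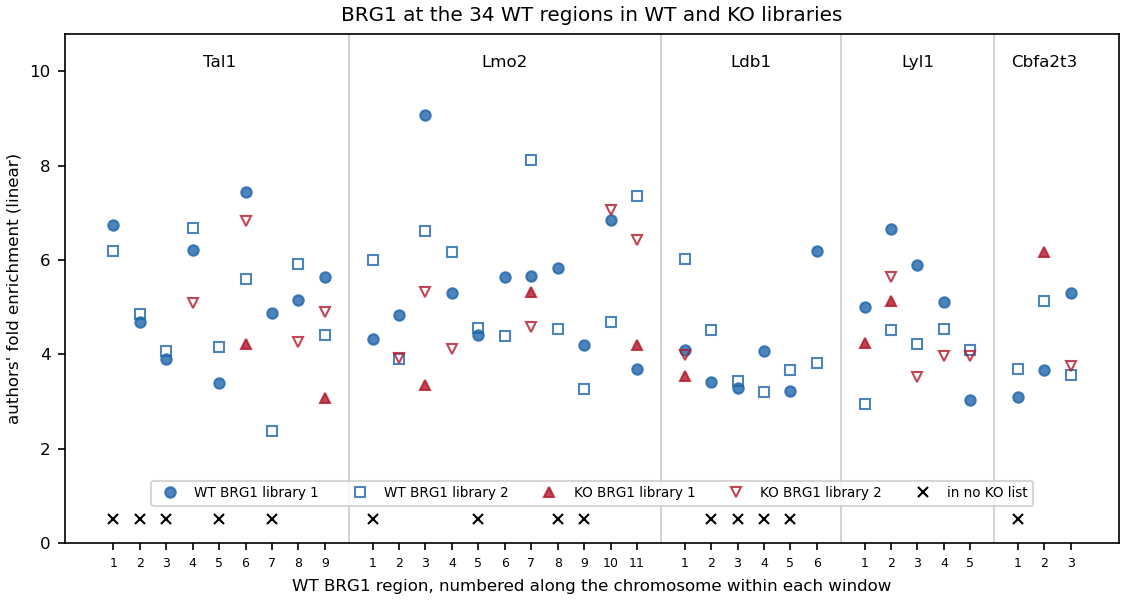
Authors' fold enrichment (linear) of BRG1 at the 34 WT BRG1 regions, numbered along each window; filled circles and open squares are WT libraries 1 and 2, filled and open triangles KO libraries 1 and 2, and crosses mark the 14 regions in no KO list. Regions with neither triangle nor cross were called by the KO group list alone. The KO value lies below both WT values at 5 of 9 regions in library 1 and 8 of 16 in library 2. It lies between them at 3 and 7, and above both at 1 and 1. Counts over all regions of the genome are not given beside these.

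Seen from the KO lists, nearly all BRG1 peaks at the loci lay on WT BRG1, as KO peaks did genome-wide. A WT BRG1 peak of any list was present at 13 of 13 peaks of KO library 1 (98.0% genome-wide), at 22 of 23 of library 2 (95.9%) and at 38 of 41 of the group list (89.1%), and all 6 KO regions overlapped a WT region (97.7%). A hemogen peak was present at 13 of 13 (98.8%), 22 of 23 (97.7%) and 39 of 41 (93.8%). Of the 6 KO regions, 2 lay in the broad Tal1 region, 3 at Lmo2 and 1 at Lyl1. The strongest, chr4:115056312-115057096 at Tal1, had folds of 4.21 and 6.83 and rank 28 of 1543.

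The exceptions were 4 KO peaks at 3 places. At Lmo2, KO library 2 had a peak at chr2:103902960-103903150 (fold 5.60) and the group list at chr2:103903017-103903158 (fold 3.75). At Cbfa2t3 the KO group list had peaks at chr8:122665791-122666102 (fold 4.83) and chr8:122701545-122701719 (fold 4.36), with none in either KO library. All 4 overlapped an H3K27ac peak of some list, as every KO peak of the 5 windows did, beside 97.1%, 95.8% and 91.9% of all peaks of KO library 1, library 2 and the group list.

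The fold compares a summit with its local background, and that background stood higher in the KO lists. Over the peaks of the 5 windows the median local background was 1.99 and 2.12 times the genome-wide background in WT libraries 1 and 2 and 8.90 and 5.15 times in KO libraries 1 and 2. Over all peaks these medians were 1.82 and 2.09 in WT and 5.34 and 4.75 in KO. The difference was thus present in the whole lists and not only at these loci. Its part in the WT and KO folds was not tested.

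Read against the genome-wide background, KO peaks stood higher than WT peaks over the whole lists, and at these loci as well. Over all peaks the median summit height was 8.96 and 10.3 times that background in WT libraries 1 and 2 and 30.0 and 26.7 times in KO libraries 1 and 2. The backgrounds themselves, on each list's own scale, were 2.36 and 1.91 in WT and 0.562 and 0.631 in KO. In KO library 1 the background equals the scaling factor of the list, so its heights on this measure are fragment numbers. At the 9 WT regions with a peak in KO library 1, the median fold was 4.21 in that library and 5.63 and 5.60 in the WT libraries, and 5 of the 9 lay below both WT values. The median summit height over the genome-wide background was 34.0 in that library and 16.8 and 17.5 in WT, and 9 of 9 lay above both. At the 16 regions with a peak in KO library 2, the median fold was 4.41 beside 5.46 and 5.14 in WT (8 of 16 below both), and the median height 30.0 beside 14.8 and 15.6 (16 of 16 above both). Fragments at these summits, not corrected for depth, went the other way. Their median was 34.0 in KO library 1 beside 45.0 and 46.0 in WT (7 of 9 below both, 1 above). In KO library 2 it was 28.0 beside 39.5 and 41.0 (14 of 16 below both, 1 above). Counts over all regions of the genome are not given beside these.

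The broad Tal1 region chr4:115054678-115061426 gives these scales for a single region, read at summits up to 1130 bp apart. Its summits held 58 and 59 fragments in WT and 56 and 39 in KO. Against the genome-wide background these were heights of 21.6 and 22.5 in WT and 56.0 and 41.7 in KO, but the local background was 2.54 and 3.59 times the genome-wide one in WT and 11.9 and 4.75 times in KO. The authors' folds of 7.44, 5.60, 4.21 and 6.83 are the result of both terms. The regions of these 2 paragraphs were picked by having a KO peak, so the heights describe them and not the 14 regions in no KO list.

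**Figure D5:**
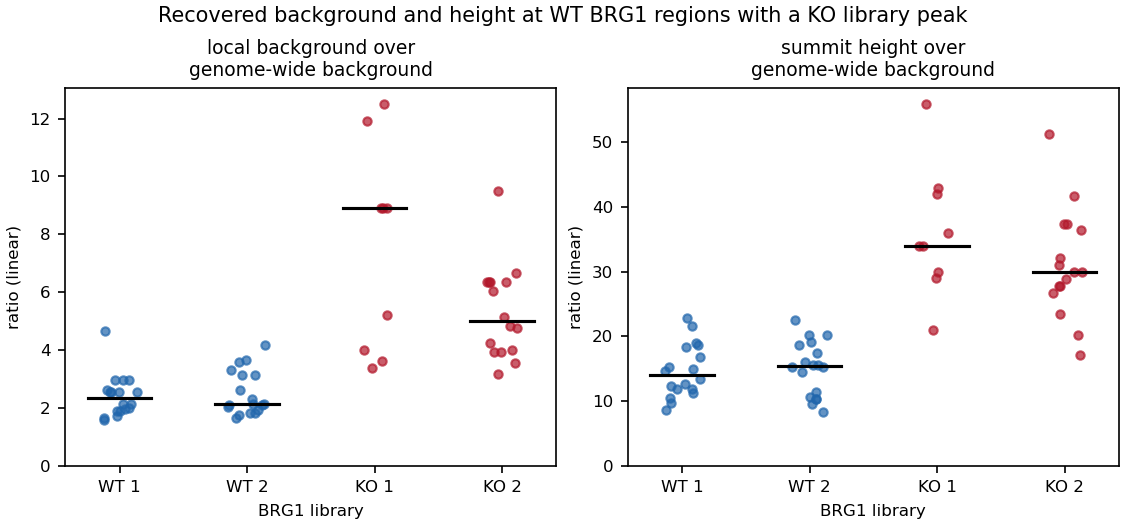
Local background (left) and summit height (right), each over the genome-wide background of the library (linear ratios), at the WT BRG1 regions with a KO library peak; points are all regions with a peak in either KO library (in a KO panel column, those with a peak in that library) and lines medians. In the KO libraries both medians are higher, as they are over the whole lists. Over all peaks the median height is 30.0 and 26.7 in KO and 8.96 and 10.3 in WT. At the 9 and 16 regions with a peak in KO libraries 1 and 2, the height exceeds that of both WT libraries. Fragments at the summits (not drawn, not corrected for depth) are fewer than in both WT libraries at 7 of 9 and 14 of 16. Regions were picked by having a KO peak, and counts over all regions of the genome are not given beside these.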

How the data were processed

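The authors deposited peak lists for 8 fetal liver immunoprecipitates and 4 groups, with no header. As deposited, a peak has a fold enrichment (a linear ratio) and the −log10 of its p-value and of its q-value. Per the submitters' processing notes, MACS2 2.2.7.1, Picard 2.21.4, SAMtools 1.9 and Bowtie2 2.3.5 were used; their roles, the build and the control for each list are not given in the sources used.

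Groups and numbers came from sample titles, although peak names inside the hemogen lists carry other numbers. Peaks on the 19 autosomes and X were used. Overlap meant 1 bp. Fold was read as (height + 1)/(background + 1) and p as an upper Poisson tail. Heights then were whole multiples (within 0.01) of 1 scaling factor for 100% of up to 6000 peaks per list, which gave fragments and backgrounds. The genome-wide background is the lowest shared by at least 5 peaks. Backgrounds of 0.5 or less were not accepted, a bound just below the KO values of 0.562 and 0.631. This reading of the caller is an assumption, on which all depths, backgrounds and heights rest; the simulated data tested only the arithmetic of the inversion.

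Named were up to 6 of the strongest WT BRG1 regions per window, the strongest hemogen region without BRG1, the widest H3K27ac region and KO peaks off WT BRG1; a few others were chosen after their values were seen. Windows and lists were chosen with earlier results of these data known. Sequences, motifs and partner genes need a mouse genome and were not analysed here; K562 libraries were not used here. Alternatives are given at the end. Scripts ran on SciPy 1.17.1, NumPy 2.4.6, Matplotlib 3.10.9, pandas 2.3.3 and Python 3.11.15.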

Additional observations from a re-analysis of the deposited data

How the results depend on the processing

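The WT to KO ratio of BRG1 peaks in the windows (3.19) was 4.64 at a minimum −log10 q of 5, ran from 2.5 to 4.42 with each library left out, and reversed to 0.897 with lists trimmed to 3205 peaks. Trimming removes in advance a difference that runs through the whole lists. Calls of the WT BRG1 regions in the KO (58.8%) came to 31.9% with the authors' group lists and to 87.5% (7 of 8) with trimmed lists. Where both KO libraries had to have a peak, the share was 20.6%, beside 12.1% genome-wide. Leaving out each library gave 26.5% (without KO library 2, 18.4% genome-wide) to 49.1%, and without WT BRG1 library 2 it was 41.7%. No genome-wide share was computed for the group lists, the trimmed lists, a WT library left out or the blocks named next. With the replicate number as a block, same-numbered WT and KO libraries gave 25.7%, and the blocked ratio was 3.19 with an exact sign-flip p of 0.5; the labels do not say that numbers pair animals. The share of hemogen regions with WT BRG1 (56.2%) ran from 50.0% to 75.0% with each library left out, the highest without WT BRG1 library 2. The share of WT BRG1 regions with H3K27ac (82.4%) stayed between 71.7% and 93.1% in all 7 alternatives run. Windows widened by 10 kb held 1332 peaks. With 2 libraries per group, no test over libraries could give a p below 0.333, and a region in no KO list is not thereby unbound at the KO depth.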
